A study of Arabidopsis thaliana with 44 samples.

Results

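The KNOX and BELL meristem genes, together with AS1 and AS2, were followed through transcript counts, H3K27me3 and H2A.Z in shoots of Arabidopsis thaliana. The 10 genes were chosen by name, and they make up 10 of the 33341 genes of the count table. They are the class I KNOX genes STM (AT1G62360), KNAT1 (AT4G08150), KNAT2 (AT1G70510) and KNAT6 (AT1G23380) and the class II KNOX gene KNAT3 (AT5G25220). PNY (AT5G02030), PNF (AT2G27990) and ATH1 (AT4G32980) are BELL genes, and AS1 (AT2G37630) and AS2 (AT1G65620) are repressors of KNOX genes in leaves. All 10 passed the filter on low counts, as did 20375 genes in all. The single mutants pkl-1, clf-28 and pie1-5, each represented by 1 allele, were compared with WT. All plants were grown in soil with 16 h of light, and shoots were taken at 3 weeks. RNA-seq has 3 libraries per genotype, described in the series as independent biological replicates, and chromatin immunoprecipitation (ChIP) has 2 per genotype and mark by the same description.

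KNOX and BELL proteins are homeodomain transcription factors of the TALE class that bind DNA as pairs, 1 partner of each kind. Class I KNOX genes are active in the shoot apical meristem and in stems, where they keep cells undifferentiated, and they are switched off where a leaf begins. AS1, a MYB protein, and AS2, a LOB-domain protein, form a complex that binds the KNAT1 and KNAT2 promoters and keeps these genes off in leaves, with Polycomb proteins that place H3K27me3, trimethylation of histone H3 lysine 27. CLF is 1 of the Polycomb enzymes that write H3K27me3. PKL belongs to the CHD3 family of remodelers and is linked to keeping this mark in place. PIE1 drives the SWR1 complex, which exchanges H2A for the variant H2A.Z.

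RNA libraries held 21.6 to 33.1 M reads over genes. PKL itself was higher in the libraries labelled pkl-1 than in WT (log2 fold change 0.89, a call lost without any 1 WT or pkl-1 library), CLF was higher in the libraries labelled clf-28 (2.77), and PIE1 stood below WT in all pie1-5 libraries without passing the test in edgeR (−0.90, adjusted p = 0.0565; DESeq2 called it). The counts therefore do not check the labels pkl-1 and clf-28, and each direction given for those genotypes is that of the libraries so labelled. Reads fell on 25807 genes in pkl-1 replicate 2 and on 21380 to 22847 genes in the other libraries. The 3 mutants were compared with the same WT libraries, so the differences from WT given below are not independent of each other. In whole shoots, fewer cells of a type and less RNA per cell cannot be told apart.

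KNAT1 and KNAT6 passed the test in pie1-5, and no member did in the libraries labelled pkl-1 or clf-28. Their transcripts rose in pie1-5, to 2.19 times the WT level for KNAT1 and 2.47 times for KNAT6. The test was edgeR's quasi-likelihood F test with Benjamini-Hochberg adjustment over all 20375 genes, and a gene below 0.05 was called. Of all tested genes 3.80% were called higher in pie1-5, 3.56% lower and 7.36% in either direction, against 2 of 10 members higher and 0 lower. The median log2 fold change of the members was 0.36 in pie1-5, against 0.01 for all genes. Without pie1-5 replicate 1, the values of KNAT3, AS1 and AS2 were −0.24, −0.06 and −0.61. In the libraries labelled pkl-1, where 4.03% of all genes were called, edgeR called 0 of 10 members, 2 (KNAT1 and KNAT6) had an unadjusted p below 0.05, and DESeq2 called 0. The members' median there was −0.20. In the libraries labelled clf-28, where 2.15% of all genes were called, edgeR again called 0 of 10, 2 (KNAT6 and ATH1) had an unadjusted p below 0.05, and DESeq2 called 0, with a median of 0.13.

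**Figure D1:**
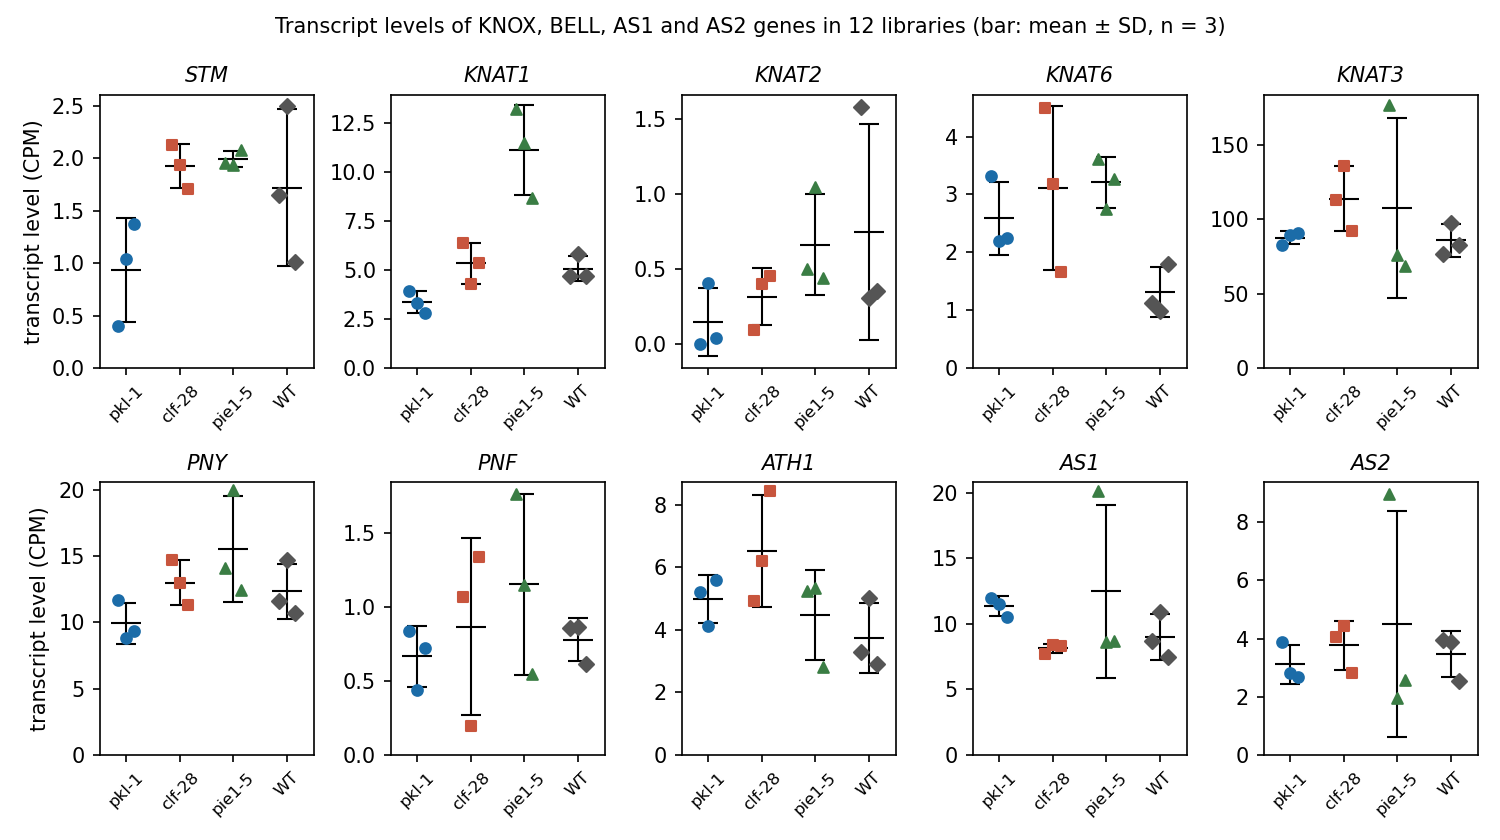
Transcript level of each of the 10 genes in CPM (counts scaled to a library of 1 M reads, linear axis) in every library, by genotype, with 3 libraries per genotype. Black bars give the mean ± SD. The KNAT1 points of pie1-5, from 8.69 to 13.2 CPM, lie above those of every other genotype, and pie1-5 replicate 1 stands far above the other pie1-5 libraries for KNAT3, AS1 and AS2.

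KNAT1, also called BREVIPEDICELLUS, shapes internodes and pedicels and restrains lignin deposition in stems. KNAT1 reached 13.2, 11.5 and 8.69 CPM in pie1-5, against 4.69, 5.81 and 4.70 CPM in WT. The unit CPM divides each count by the TMM-scaled library total. Every pie1-5 library lay above every WT library, as for 12.9% of all genes, and the log2 fold change was 1.13 ± 0.23 (SE, n = 3 each, edgeR adjusted p = 0.00884). Under the label pkl-1 KNAT1 had 3.93, 3.30 and 2.83 CPM, below every WT library. That placing held for 13.2% of all genes, and the difference of −0.60 ± 0.24 did not pass (edgeR adjusted p = 0.197). Under the label clf-28 it had 6.40, 4.27 and 5.34 CPM, a range that contains the WT values (0.08 ± 0.23, edgeR adjusted p = 0.933).

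KNAT6 acts with STM in the meristem and at organ boundaries, and with BELL partners in the inflorescence. KNAT6 reached 3.61, 2.74 and 3.27 CPM in pie1-5, against 1.13, 0.988 and 1.80 CPM in WT. Every pie1-5 library lay above every WT library, as for 12.9% of all genes, and the log2 fold change was 1.31 ± 0.38 (edgeR adjusted p = 0.0461). This call lies close to the threshold. It was lost without WT replicate 1 or 2, without any pkl-1 or any pie1-5 library, and without clf-28 replicate 2, with adjusted p up to 0.153. It was also lost when only pie1-5 and WT were fitted (0.0836). Its pkl-1 libraries stood at 3.31, 2.20 and 2.25 CPM, all above WT, as for 12.1% of all genes (0.99 ± 0.38, edgeR adjusted p = 0.176). Its clf-28 libraries stood at 4.50, 3.18 and 1.66 CPM, and 2 of the 3 lay above every WT library (1.26 ± 0.38, edgeR adjusted p = 0.115). That difference passed when every gene with at least 1 count was tested (0.0369). The KNAT6 estimate was thus positive in all 3 mutants, which share the WT libraries.

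STM, required to form and maintain the shoot apical meristem, was measured at a low level. Its reads numbered 9, 33 and 36 in the libraries labelled pkl-1, against 44, 81 and 23 in WT, or 0.398, 1.04 and 1.37 CPM against 1.65, 2.50 and 1.01 CPM. These ranges overlapped, and the difference of −0.87 ± 0.44 did not pass (edgeR unadjusted p = 0.0657, adjusted p = 0.329). Its 95% interval of −1.74 to −0.01 uses a normal quantile and is narrower than the F test implies. Libraries labelled clf-28 gave 2.13, 1.94 and 1.71 CPM of STM, and pie1-5 libraries gave 1.96, 1.94 and 2.08 CPM, all within the WT range. The intervals of these differences were −0.69 to 0.99 for clf-28 and −0.63 to 1.04 for pie1-5.

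KNAT2, a class I gene repressed by AS1 and AS2 in leaves, had 0 to 42 reads per library, the fewest of the 5 KNOX members. There were 0, 13 and 1 reads in the libraries labelled pkl-1, against 42, 10 and 8 reads in WT, and 1 WT library stood well above the other WT libraries. The library with 0 reads allows up to 0.133 CPM, a limit of 3 reads that covers counting error only. The difference of −2.21 ± 1.09 did not pass (edgeR adjusted p = 0.316), and it ranged from −4.93 to −1.05 as single libraries were left out. KNAT2 had 3, 8 and 17 reads in the libraries labelled clf-28 and 16, 33 and 13 reads in pie1-5. Both sets overlapped WT (−1.23 ± 1.04 and −0.16 ± 1.00), so a change of several-fold in KNAT2 was not detectable at this depth.

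KNAT3, the class II gene, is transcribed broadly in mature leaves and had 1870 to 5703 reads per library. Its CPM were 82.6, 89.1 and 90.9 for pkl-1, 113, 136 and 92.1 for clf-28, and 177, 76.0 and 68.7 for pie1-5, against 76.6, 97.7 and 82.9 for WT. The difference from WT was 0.03 ± 0.28 in pkl-1, with a 95% interval of −0.52 to 0.58. The 0.41 ± 0.28 in clf-28 and 0.32 ± 0.28 in pie1-5 did not pass either (edgeR adjusted p = 0.588 and 0.558). The pie1-5 mean rests on replicate 1, and without that library the difference was −0.24.

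**Figure D2:**
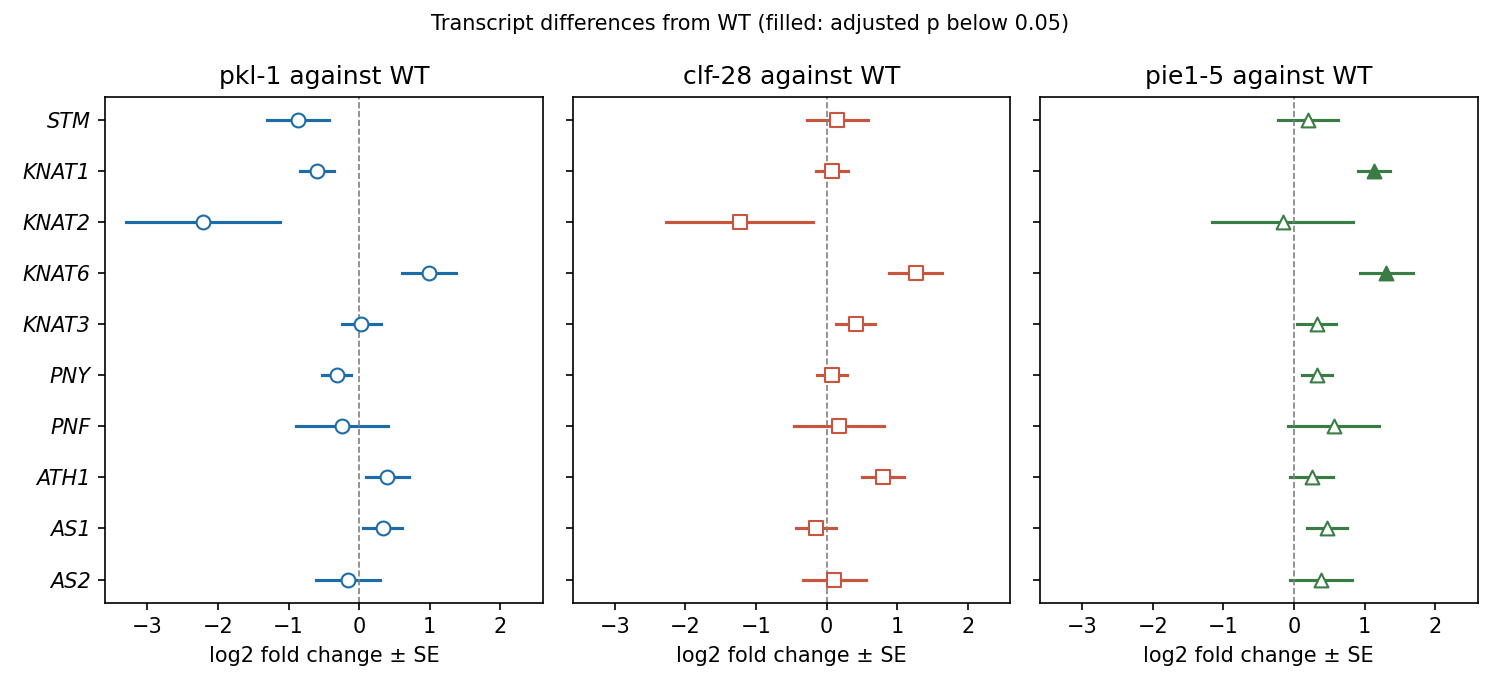
Log2 fold change of each gene's transcript against WT, with its SE as a horizontal line, in separate panels for pkl-1, clf-28 and pie1-5 (3 libraries per genotype, 1 common fit). Filled symbols passed an adjusted p of 0.05; they are KNAT1 at 1.13 and KNAT6 at 1.31 in pie1-5, and the widest line is that of KNAT2 in pkl-1, at −2.21.

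The BELL members PNY, PNF and ATH1 did not pass in any mutant. PNY, also called RPL or BLH9, pairs with KNAT1 and STM and patterns the stem and the replum. Its CPM were 11.7, 8.80 and 9.32 for pkl-1, 14.7, 13.0 and 11.3 for clf-28, and 14.1, 20 and 12.4 for pie1-5, against 11.6, 14.7 and 10.7 for WT. Each set overlapped WT, with differences of −0.32 ± 0.21, 0.08 ± 0.21 and 0.33 ± 0.21 in pkl-1, clf-28 and pie1-5. PNF, or BLH8, a close relative of PNY that acts with it in meristem maintenance and flowering, had 4 to 57 reads per library, and its 95% interval in pie1-5 ran from −0.69 to 1.82. ATH1, which acts at the base of the shoot and in stem growth, had 4.92, 6.21 and 8.44 CPM under the label clf-28, against 3.30, 5.03 and 2.90 CPM in WT. That was 2 of 3 libraries above every WT library, and the difference of 0.80 ± 0.30 did not pass (edgeR adjusted p = 0.237). Its CPM were 5.21, 4.12 and 5.61 for pkl-1 (0.40 ± 0.31) and 5.26, 5.35 and 2.80 for pie1-5 (0.25 ± 0.30), both overlapping WT.

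The leaf repressors AS1 and AS2 also did not pass in any mutant. The CPM of AS1 were 12, 11.5 and 10.5 for pkl-1, 7.73, 8.35 and 8.33 for clf-28, and 20.1, 8.63 and 8.66 for pie1-5, against 8.66, 10.9 and 7.47 for WT. The differences were 0.33 ± 0.28, −0.15 ± 0.28 and 0.47 ± 0.28, and the pie1-5 value was −0.06 without pie1-5 replicate 1. AS1 is the one member that overlaps another annotated gene, ACT1, and the library kit is not one that marks strand, so reads of the overlap cannot be assigned. The CPM of AS2 were 3.89, 2.80 and 2.67 for pkl-1, 4.04, 4.42 and 2.83 for clf-28, and 8.96, 1.94 and 2.59 for pie1-5, against 3.94, 3.89 and 2.55 for WT. In pie1-5 its difference was 0.38 ± 0.44 with replicate 1 and −0.61 without it. In pie1-5 replicate 1 both AS1 and AS2 were above every WT library, and in the other pie1-5 libraries they were within or below the WT range.

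Direct tests between mutants were made because a call in 1 mutant and none in another does not compare them. KNAT1 was lower in the libraries labelled pkl-1 than in pie1-5 by a log2 difference of −1.73 ± 0.24 (edgeR adjusted p = 0.00022), and lower in those labelled clf-28 than in pie1-5 by −1.05 ± 0.23 (edgeR adjusted p = 0.0101). It was the 1 member called in each contrast. Of all genes, 11.0% were called between pkl-1 and pie1-5 (6.27% lower in pkl-1) and 8.76% between clf-28 and pie1-5 (5.12% lower in clf-28). In both contrasts every library of the first genotype lay below every pie1-5 library, as for 14.8% and 14.4% of all genes. The clf-28 contrast was lost without clf-28 replicate 2 (−0.91, adjusted p = 0.053). PNY stood below pie1-5 in every library labelled pkl-1 (−0.65 ± 0.21) and missed the threshold in edgeR (adjusted p = 0.0644), while DESeq2 called it. KNAT6 did not differ detectably between mutants (−0.31 ± 0.36 for pkl-1 against pie1-5 and −0.05 ± 0.36 for clf-28 against pie1-5). Between pkl-1 and clf-28, where 2.73% of all genes were called, edgeR and DESeq2 each called 0 members, and 2, STM and KNAT1, had an unadjusted p below 0.05. In the authors' deposited table of log2 fold changes, KNAT1 (1.14, adjusted p = 0.000678) and KNAT6 (1.31, adjusted p = 0.0166) in pie1-5 are the members below 0.05, and KNAT6 in clf-28 is listed at 0.0502.

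The other genes of the pathway were counted by list. Of all genes 1.45% were called higher and 2.58% lower in pkl-1, and 1.23% lower in clf-28. Of 15 tested genes among the other KNOX and BELL genes and their OFP partners, 1 was called higher and 1 lower in the libraries labelled pkl-1. In clf-28 edgeR called 0 (4 at an unadjusted p below 0.05, DESeq2 0), and in pie1-5 it called 0 (3 at an unadjusted p below 0.05, DESeq2 1, KNATM). BLH7, a BELL gene, measured 18.3, 14.9 and 16.3 CPM in pkl-1, against 8.21, 10.3 and 7.56 CPM in WT (0.92 ± 0.23, edgeR adjusted p = 0.0308). BLH3, another BELL gene, measured 11.6, 9.33 and 10.3 CPM in pkl-1, against 15.8, 18.2 and 19.1 CPM in WT (−0.77 ± 0.18, edgeR adjusted p = 0.0268). Neither pair of groups overlapped. Of all genes, 12.1% lay above WT and 13.2% below WT in every pkl-1 library. The list's median log2 fold change was −0.07 in pkl-1, 0.01 in clf-28 and −0.02 in pie1-5. KNATM, a KNOX gene without a homeodomain, had 20, 34 and 17 reads in pie1-5, against 6, 4 and 0 reads in WT, and did not pass (2.64 ± 0.94, edgeR adjusted p = 0.105). KNATM is named after its values were seen.

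Of 11 tested partners of AS1 and AS2 and other repressors of KNOX genes, 1 was called, TCP3 in pkl-1. In clf-28 and in pie1-5 edgeR and DESeq2 called 0, with 1 gene at an unadjusted p below 0.05 in each. TCP3, a TCP factor that limits KNOX and boundary gene activity in leaves, had 40.3, 42.6 and 45.7 CPM under the label pkl-1, against 27.5, 29.8 and 18.0 CPM in WT (0.77 ± 0.20, edgeR adjusted p = 0.0441). Medians of this list were 0.17, −0.08 and 0.03 in pkl-1, clf-28 and pie1-5. Of 10 KNOX target genes 5 were tested, and 1 was called in each mutant. GA2OX2, an enzyme that inactivates gibberellin, fell in pkl-1, to 3.00, 1.57 and 2.56 CPM, against 3.49, 8.55 and 8.13 CPM in WT (−1.51 ± 0.34, edgeR adjusted p = 0.0189). COMT1 and CCOAOMT1 are methyltransferases of lignin synthesis that KNAT1 is known to bind. COMT1 fell in clf-28, to 36.8, 40.3 and 38.4 CPM, against 56.8, 73.9 and 70.8 CPM in WT (−0.80 ± 0.19, edgeR adjusted p = 0.0347). CCOAOMT1 rose in pie1-5, to 59.5, 36.9 and 35.9 CPM, against 25.2, 26.8 and 23.6 CPM in WT (0.81 ± 0.19, edgeR adjusted p = 0.0182). CCOAOMT1 was above WT in 3 of 3 pie1-5 libraries, as were 12.9% of all genes. COMT1 in pie1-5 measured 76.8, 61.1 and 47.9 CPM, on both sides of the WT range, and did not pass (−0.12 ± 0.19, edgeR adjusted p = 0.771). Each of these 6 calls was lost without certain single libraries. They were WT replicate 1 or 3 or any pkl-1 library for BLH7 (adjusted p up to 0.142), and WT replicate 2 or 3 or any pkl-1 library for BLH3 (up to 0.109). TCP3 was lost without WT replicate 1 or 3, any pkl-1 or clf-28 library or pie1-5 replicate 2 (up to 0.196), and GA2OX2 without replicate 2 or 3 of pkl-1 or of WT (up to 0.0875). COMT1 was lost without any clf-28 library or replicate 2 or 3 of pkl-1 or of WT (up to 0.147), and CCOAOMT1 without WT replicate 1 or 3 (up to 0.0728) and when only pie1-5 and WT were fitted (0.0935). Of 13 leaf polarity genes edgeR called 0 in any mutant, with 1, 2 and 3 at an unadjusted p below 0.05 in pkl-1, clf-28 and pie1-5, and DESeq2 called 1, KAN1 in clf-28. Of 5 tested among 7 meristem genes, both tools called 0 and none had an unadjusted p below 0.05.

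Markers of tissues that express KNOX genes were read beside KNAT1 and KNAT6. The summed level of 4 shoot apical meristem markers overlapped between pie1-5 (12.2 to 16.3 CPM) and WT (11.9 to 15.9 CPM), and its defining members WUS and CLV3 had 0 to 3 and 0 reads per library in these genotypes. The 4 flower and inflorescence markers summed to 2.05 to 3.44 CPM in pie1-5, against 0.307 to 1.68 CPM in WT. The floral identity genes AP1 and LFY gave most of these reads. AP1 had 28, 78 and 71 reads in pie1-5 against 22, 5 and 7 in WT, and LFY 38, 4 and 4 in pie1-5 against 7, 14 and 0 in WT. The 4 organ boundary markers summed to 0.828 to 3.08 CPM in pie1-5, against 0.246 to 0.659 CPM in WT. Neither of these sums over 4 genes overlapped between pie1-5 and WT. Over the 2 tested genes of each list alone, both sums overlapped. Flower sums were then 0.871 to 2.64 CPM in pie1-5, against 0.308 to 1.43 CPM in WT. Boundary sums were then 0.255 to 2.61 CPM in pie1-5, against 0.154 to 0.659 CPM in WT. Among single genes, 12.9% of all lay above WT in every pie1-5 library. Of the 2 tested genes in each list, edgeR and DESeq2 called 0. AP1 stood at 2.16 ± 0.85 (edgeR adjusted p = 0.139) and the boundary gene CUC3 at 4.45 ± 1.70 (edgeR adjusted p = 0.129). CUC3 ranged from 0 to 1.62 CPM in pie1-5. UFO, of the flower list, went the other way, with 9 reads in pie1-5 against 25 in WT (−1.55 ± 1.48). The part of these tissues in the KNAT1 and KNAT6 values was not tested. The flower sums of pkl-1 and clf-28, 0.353 to 0.722 and 0.583 to 1.47 CPM, overlapped WT. The boundary sums over 4 genes were 0.496 to 1.98 CPM in pkl-1, overlapping WT. In clf-28 they were 0.713 to 0.895 CPM, above every WT library. Over the 2 tested genes alone, the clf-28 boundary sums were 0.356 to 0.895 CPM and overlapped WT. Of these genes, LAS stood at −0.11 ± 0.95 and CUC3 at 2.79 ± 1.75 in clf-28, neither called. The 4 root markers summed to 56.3 to 70.0 CPM in pie1-5 and 51.3 to 56.5 CPM in pkl-1, against 22.4 to 35.3 CPM in WT. Almost all of it was PYK10, a glucosidase gene, called higher in pie1-5 (1.25 ± 0.20, edgeR adjusted p = 0.00149) and in pkl-1 (0.96 ± 0.19, edgeR adjusted p = 0.00987). The pkl-1 call was lost without WT replicate 1 or 3. WOX5, too low to be tested, had 24 reads in pie1-5, 20 in pkl-1 and 17 in clf-28, against 2 in WT. COBL9 had at most 2 reads in any genotype, and EXP7 had 0 reads in every library. Leaf mesophyll markers, 3 genes, summed to 8550 to 9410 CPM in pie1-5, against 9410 to 10100 CPM in WT, and 2 xylem markers to 3.64 to 5.06 CPM against 2.09 to 4.23 CPM.

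Across the 12 libraries, the 2 genes whose log2 CPM was most like that of each member, by Pearson r over all tested genes, were as follows. STM was closest to AT3G05600 (0.94) and AT1G01920 (0.93), KNAT1 to AT5G67460 (0.98) and DHNAT1 (0.94), KNAT2 to XXT3 (0.91) and AT3G16990 (0.88), and KNAT6 to AT1G12200 (0.91) and AT3G58550 (0.88). KNAT3 was closest to AT1G53380 (0.92) and SSL4 (0.91), PNY to AT4G03500 (0.95) and RPN1B (0.91), PNF to AT5G39471 (0.89) and EIF3G2 (0.84), and ATH1 to AT4G16670 (0.89) and AT5G44040 (0.89). AS1 was closest to UGT84A2 (0.93) and HBP1 (0.92), and AS2 to AT3G10840 (0.95) and AT4G18220 (0.94). No other member was among the 2 genes most like any member. Among the members, KNAT3 and AS2 (r = 0.83), KNAT1 and PNY (0.79) and AS1 and AS2 (0.68) varied together most closely, and KNAT2 and KNAT6 least (−0.38). These values describe 12 libraries of 4 genotypes. The 2 genes named for each member had the highest r of 20375 tested genes. Their r is therefore high by selection, and shared regulation was not tested. KNAT3, AS1 and AS2 share the high value of pie1-5 replicate 1.

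H3K27me3 covered the loci of 7 members in every table of regions. Regions lay over the bodies of STM, KNAT1, KNAT2, KNAT6, PNY, PNF and AS2 in all 6 tables, against 24.6% to 33.3% of all annotated genes. ATH1 had no region over its body or within 1 kb in any table, and KNAT3 had a region in its flank in all 6. AS1 and the KNAT3 body held short regions in 1 table, that of clf-28 replicate 2, the shallowest library at 3.17 M reads. These stood above WT, with 23.0 RPM in clf-28 against 1.99 RPM over the AS1 body. Over the KNAT3 body the values were 16.1 RPM in clf-28 and 2.43 RPM in WT. Thus all 4 class I KNOX genes, both PNY and PNF, and AS2 lay in regions of the mark in shoots, while AS1, the partner of AS2, had no region in 5 of 6 tables.

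These are wide domains. The STM region, chr1:23058401-23071800 in TAIR10, spans 13.4 kb and holds the whole gene. The KNAT1 region, chr4:5144201-5162200, spans 18.0 kb and holds 5 annotated genes, 2 of them protein-coding. The AS2 region, chr1:24396401-24414600, spans 18.2 kb with 4 genes, 3 of them protein-coding. KNAT2, KNAT6, PNY and PNF lay in regions of 10.2, 9.4, 10.4 and 5.4 kb in the table of pkl-1 replicate 1, in which each is the only protein-coding gene. The median region of that comparison was 2.8 kb long. In the WT library the mark stood at 61.0 RPM per kb over STM, 48.0 over AS2, 44.2 over PNY, 42.9 over KNAT6, 36.9 over KNAT2, 35.2 over PNF and 26.2 over KNAT1. RPM scale reads to a library total of 1 M, and the median over all regions was 24.1 RPM per kb. The WT order has no error, because all 6 tables hold the same WT library.

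**Figure D3:**
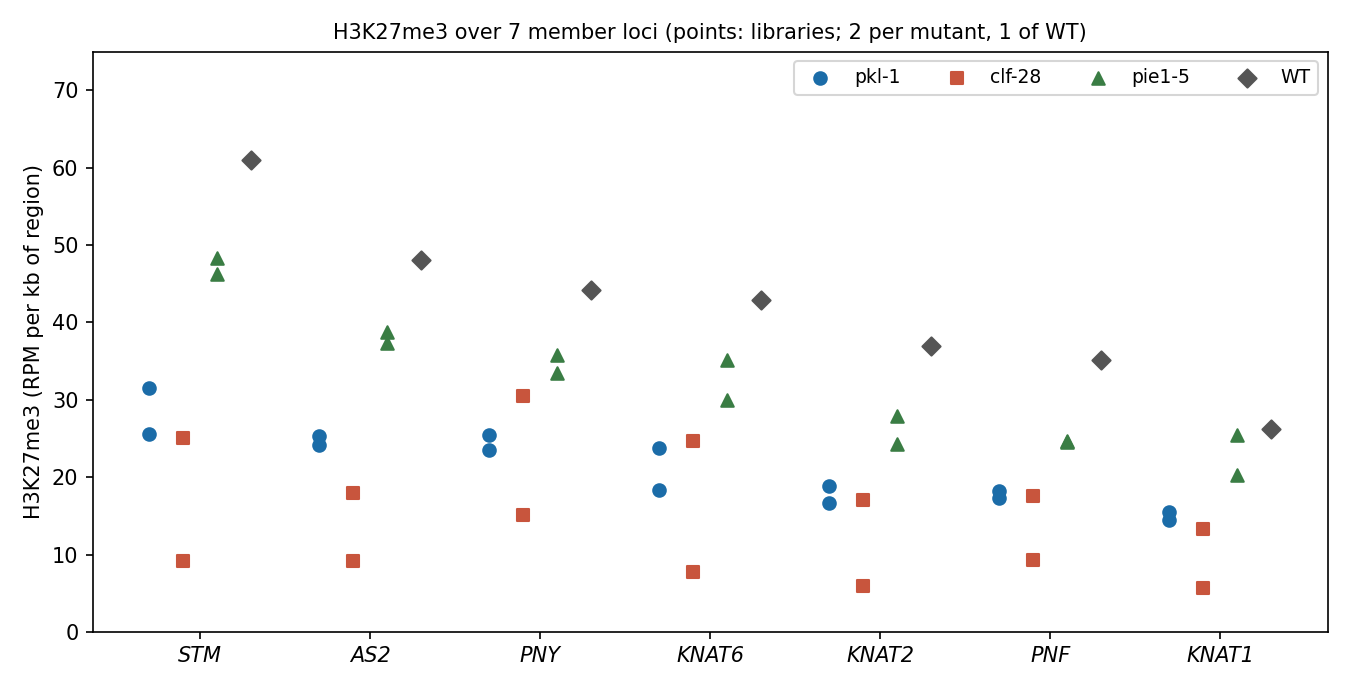
H3K27me3 in RPM per kb of region (linear axis) over the 7 loci that carry the mark, ordered by the WT level; points are libraries, 2 per mutant and 1 of WT. The WT point is the highest at every locus, at 61.0 over STM and 26.2 over KNAT1, and the clf-28 replicates lie far apart.

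H3K27me3 fell over all 7 loci in the libraries labelled pkl-1. STM had 422 and 344 RPM in pkl-1, against 817 RPM in the WT library, or 0.469 times WT (log2 fold change −1.09 ± 0.14, edgeR adjusted p = 7e-12). KNAT2 had 191 and 170 RPM against 376 RPM (−1.06 ± 0.18), and KNAT6 had 224 and 172 RPM against 403 RPM (−1.02 ± 0.18). PNF had 98.2 and 93.3 RPM in pkl-1 against 190 RPM in WT (−0.99 ± 0.24), and AS2 had 460 and 441 RPM against 873 RPM (−0.95 ± 0.14). The falls were smallest over PNY, with 245 and 265 RPM in pkl-1 against 459 RPM in WT (−0.85 ± 0.17), and KNAT1, with 260 and 279 RPM against 472 RPM (−0.81 ± 0.16). All 7 passed (edgeR adjusted p up to 0.000274). Of all 5337 regions 51.2% were called, 51.0% lower, as were 89.7% of the 1418 regions of 5 kb or more, a length that all 7 loci reach, and 92.8% of all regions were below WT in both tables. The members' median of −0.99 stands beside −0.79 for all regions and −0.86 for those of 5 kb or more.

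Those falls are relative to library totals. The regions took 40.0% and 36.2% of the reads in pkl-1, against 65.6% and 65.2% in the WT library, and the part of this share in the falls was not tested. When TMM factors from the regions replaced the totals, the median of all regions was 0 and that of the members −0.19, none of the 7 was called (lowest adjusted p = 0.736), and the number of called regions was 7 in place of 2733. On that scale the members ranged from −0.30 at STM to 0 at KNAT1. With 1 WT library, the test takes the spread of the mutant libraries for that of WT.

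In the libraries labelled clf-28 the values over the 7 loci also lay below WT, but the replicates differed widely and none passed. STM had 335 and 122 RPM in clf-28, against 817 RPM in the WT library, ratios of 0.41 and 0.149. AS2 had 326 and 167 RPM against 873 RPM, and KNAT2 174 and 60.2 RPM against 376 RPM. KNAT1 had 240 and 101 RPM in clf-28 against 472 RPM in WT, KNAT6 232 and 73.1 RPM against 403 RPM, and PNY 317 and 157 RPM against 459 RPM. PNF had 98.5 and 50.4 RPM in clf-28 against 192 and 190 RPM in WT. Both replicates lay below WT at all 7 loci, as for 75.2% of the 5441 regions. The log2 fold changes ran from −1.84 ± 1.51 at STM to −0.96 ± 1.57 at PNY, with a median of −1.47, against −0.90 for all regions and −1.18 for those of 5 kb or more. The edgeR adjusted p was 0.948 at each locus, and in all edgeR called 0 regions, with 5 at an unadjusted p below 0.05, none of them over a member. No other tool was run on regions. STM and AS2 lay among the lowest 5.20% and 5.77% of regions by log2 fold change. The clf-28 libraries held 6.44 and 3.17 M reads, against 13.6 M in WT, and had 46.8% and 53.3% of reads in regions, against 66.0% and 70.3% in WT, a difference whose part was not tested.

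In pie1-5 the members' values lay below WT, as most regions did, and none passed. STM had 620 and 647 RPM in pie1-5 against 817 RPM in the WT library, and AS2 680 and 705 RPM against 873 RPM. KNAT1, whose transcript rose in pie1-5, had 465 and 365 RPM there, against 474 and 472 RPM in WT, the 2 values of 1 library over slightly different bounds (−0.19 ± 0.22). KNAT6, whose transcript also rose, had 282 and 330 RPM in pie1-5 against 403 RPM in WT (−0.40 ± 0.24). Neither passed (edgeR adjusted p = 0.993 each), and the members' median of −0.37 lay near the −0.31 of all 5180 regions, of which 0.0386% were called. RPM lay below WT in both tables at 60.7% of all regions, and at all 7 loci. At none of the 7 loci did edgeR call a change in pie1-5, while 2, STM and KNAT2, had an unadjusted p below 0.05. With TMM factors, KNAT1 stood at 0.19 and AS2 at 0.02, on the other side of 0.

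**Figure D4:**
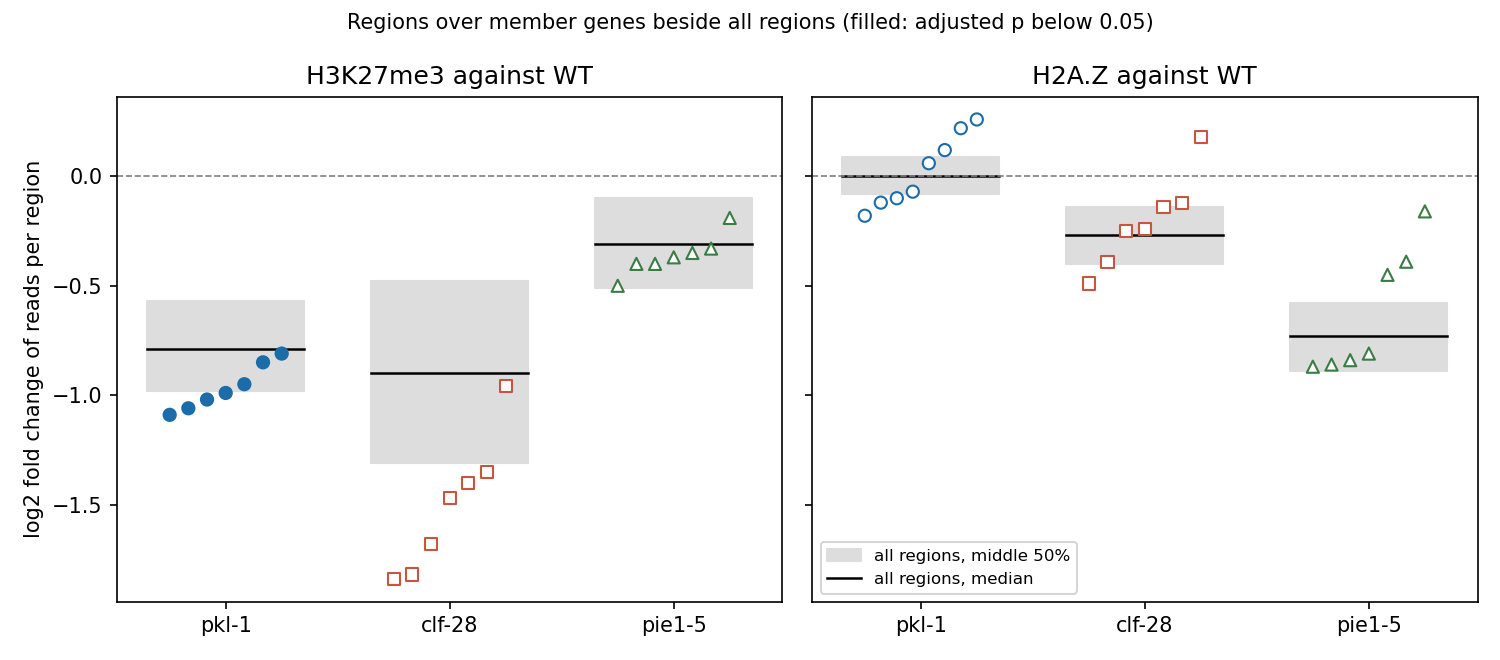
Log2 fold change of reads per region against WT for regions over member loci (points, ordered by value) beside all regions (grey band, middle 50%; black line, median), for H3K27me3 on the left and H2A.Z on the right. The 7 filled points of pkl-1, from −1.09 to −0.81, passed an adjusted p of 0.05; open points did not.

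H2A.Z regions lay over the bodies of 9 of the 10 members in all 6 tables, against 48.9% to 68.0% of all genes, and KNAT3 had one in its flank. The 9 include all 7 with H3K27me3. Where a gene holds several regions, the one that covers most of its body is given. At 4.2 kb, the KNAT1 region, chr4:5147801-5152000, was far narrower than the H3K27me3 region around it. In the table of pkl-1 replicate 1 the WT density over STM, KNAT1, PNY, PNF and AS1 was 11.8, 13.7, 14.1, 14.8 and 17.2 RPM per kb, against a median of 18.0 over all regions. H2A.Z tables hold 2 WT libraries, of 19.1 and 19.3 M reads.

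In pie1-5 the H2A.Z values of members were mostly below WT, as over the genome. Of the 7 members with a region over the body paired between replicates, edgeR called 0, and 0 had an unadjusted p below 0.05. KNAT3 and ATH1 had pairs that lay in the flank in replicate 1. At ATH1 that pair, 0.6 kb long in replicate 1, had 3.16 and 13.0 RPM in pie1-5, against 16.5 and 21.3 RPM in WT. The replicate 1 region of this pair lay over 1 annotated gene other than ATH1, and the replicate 2 region covered 9.5% of the ATH1 body. The pair's log2 fold change of −1.46 ± 0.57 was among the lowest 1.04% of all regions. It did not pass (edgeR unadjusted p = 0.0105, adjusted p = 0.276). Inside the ATH1 body, replicate 1 held an unpaired region of 0.6 kb, with an authors' ratio of 0.363. The KNAT3 pair stood at −0.60 ± 0.45, but its replicate 2 region lay outside the 1 kb flank. The replicate 2 region inside that flank was unpaired, with an authors' ratio of 0.716. KNAT1 had 37.0 and 46.1 RPM in pie1-5, against 57.7 and 56.2 RPM in WT (−0.45 ± 0.45, edgeR adjusted p = 0.375). KNAT6 had 13.5 and 27.9 RPM against 26.8 and 45.2 RPM (−0.84 ± 0.47), KNAT2 16.4 and 31.2 RPM against 40.2 and 46.4 RPM (−0.87 ± 0.46), and AS1 11.6 and 21.3 RPM against 27.5 and 32.5 RPM (−0.86 ± 0.49). AS2 had 19.6 and 24.6 RPM in pie1-5 against 31.3 and 22.6 RPM in WT. These ratios, 0.627 and 1.09, cover different stretches, of 1.6 kb in replicate 1 and 0.8 kb in replicate 2. Another AS2 pair, which covers less of the body, was below WT in both replicates (ratios 0.447 and 0.78, −0.71 ± 0.49). The STM region of replicate 1, 3.0 kb long, was unpaired. The replicate 2 region that holds it, 11.8 kb long with 5 annotated genes, was matched to another replicate 1 region. The ratios of these STM regions were 0.626 and 0.824 in the authors' deposited tables. The members' median of −0.81 lay near the −0.73 of all 14570 regions, 93.4% of which had a lower RPM in both tables. Of all regions 0.0206% were called. The 2 pie1-5 libraries differed, with median ratios to WT of 0.446 and 0.752. The values of all 7 members moved as single libraries were left out. KNAT1 ranged from −0.70 to −0.23, KNAT6 from −0.93 to −0.75, KNAT2 from −1.34 to −0.52 and PNF from −0.93 to −0.69. AS1 ranged from −1.38 to −0.49, PNY from −0.85 to −0.07 and AS2 from −0.96 to 0.37. With TMM factors the median of all regions was 0.02 and that of the members 0.

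In the libraries labelled pkl-1 and clf-28 the members' H2A.Z did not pass either. The members' medians were −0.01 in pkl-1 and −0.24 in clf-28, against 0 and −0.27 for all regions, of which 0.0101% were called in pkl-1. In clf-28 edgeR called 0 of 14539 regions, with 1694 at an unadjusted p below 0.05. Among members with a paired region over the body, the unadjusted count was 0 of 8 in pkl-1 and 1 of 7, PNF, in clf-28. Another KNAT2 pair in clf-28, which covers less of the body than the one counted, had an unadjusted p of 0.0435 (−0.43 ± 0.17). KNAT1 had 52.7 and 48.2 RPM in pkl-1, against 57.7 and 56.2 RPM in WT (−0.18 ± 0.09), and 49.0 and 47.5 RPM in clf-28 (−0.24 ± 0.17). KNAT6 had 39.7 and 52.3 RPM in pkl-1 against 33.9 and 45.2 RPM in WT (0.22 ± 0.09). Over STM the authors' ratios of pkl-1 to WT were 1.04 and 0.996, in unlike regions of 4.4 and 11.8 kb. H3K27me3 over the same gene stood at 0.516 and 0.421 of WT, in a region of 13.4 kb. The median ratios of all regions in pkl-1 were 0.619 and 0.527 for H3K27me3, and 1.01 and 0.989 for H2A.Z.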

How the data were processed

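RNA data were deposited as raw counts of reads over genes, with the authors' own log2 fold changes and adjusted p-values per mutant. ChIP data were deposited as 1 table of regions per mutant replicate, holding counts, RPM, a ratio of RPM and p-values with an FDR, per the file headers. Trimmomatic, Bowtie2, edgeR, SICER, bedtools and deepTools with the build TAIR10 are named in the submitters' processing notes; the sources used here give neither versions nor settings. Values are relative to neither input nor H3, whose libraries were not used.

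RNA counts went into edgeR 4.0.16 under R 4.3.3 (TMM, default filter on low counts, 1 quasi-likelihood fit of all 12 libraries, Benjamini-Hochberg adjustment); DESeq2 1.42.0 was an alternative. Regions of the 2 replicate tables were matched 1 to 1 (mutual best overlap, 50% of the shorter or more). The deposited counts of each pair were tested with edgeR, with library totals recovered from counts and RPM and region length as an offset. All 6 H3K27me3 tables hold the same WT library, used once. Coordinates are 1-based on windows of 200 bp. Genes were placed with a RefSeq table of the assembly TAIR10.1, none of whose coordinates are printed; 2 or 3 of 10 members lay in H3K27me3 regions after a shift of 20 kb, against 7 or more unshifted. That table has no strand, so 1 kb on either side stood in for 1 kb upstream. The fits were tested on simulated data. The members, lists and alternatives were chosen with earlier results of these data known. The rule for named genes takes the members, PKL, CLF, PIE1, the markers, at most 3 called genes of a list per mutant in order of adjusted p, and the 2 genes most correlated with each member. Figures were drawn with matplotlib 3.10.9. Reads carry no molecular identifiers, and the limit given for the library without KNAT2 reads covers counting error only. Intervals of differences rest on the SE of the edgeR fit, which also includes the spread between libraries.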

Additional observations from a re-analysis of the deposited data

Results flagged for a closer look

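KNAT1 was flagged because the effects of the mutants on it differed by a direct test. Its level was lower in the libraries labelled pkl-1 than in pie1-5 (log2 difference −1.73 ± 0.24 SE, n = 3 each, edgeR adjusted p = 0.00022, with all 3 pkl-1 libraries below all pie1-5 libraries). It was also lower in the libraries labelled clf-28 than in pie1-5 (−1.05 ± 0.23, edgeR adjusted p = 0.0101, again with no overlap). Such placings held for 14.8% of all genes in the pkl-1 contrast and 14.4% in the clf-28 contrast. No group had the 4 samples needed to look for single samples that stand apart.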

How the results depend on the processing

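The rise of KNAT1 in pie1-5 kept its direction and passed under all 18 alternatives (adjusted p up to 0.0421), as did its difference between pkl-1 and pie1-5 (up to 0.00342). Counts of called genes moved more. With every gene of at least 1 count they were 1763 in pkl-1, 1174 in clf-28, 2358 in pie1-5, 1332 between pkl-1 and clf-28 and 2747 between clf-28 and pie1-5, with 1 member called in clf-28 (KNAT6) and 2 between pkl-1 and pie1-5 (KNAT1 and PNY). Fitting only the 2 genotypes compared gave 1470, 940 and 513 for pkl-1, clf-28 and pie1-5 against WT, and 1241, 1411 and 1176 for pkl-1 against clf-28, pkl-1 against pie1-5 and clf-28 against pie1-5, with 1 member in pie1-5 (KNAT1). DESeq2 gave 1238 in pkl-1, 752 in clf-28 and 994 between them, with 2 members between pkl-1 and pie1-5 (KNAT1 and PNY). Leaving out 1 library gave 412 to 1697 in pkl-1, 169 to 1047 in clf-28, 749 to 2011 in pie1-5, 208 to 1219 between pkl-1 and clf-28, 1288 to 2347 between pkl-1 and pie1-5 and 888 to 1957 between clf-28 and pie1-5. Members called ranged from 1 to 2 in pie1-5, 1 to 2 between pkl-1 and pie1-5 and 0 to 2 between clf-28 and pie1-5. The replicate numbers do not pair the RNA libraries (18 correlations of deviations between same-numbered libraries, from −0.05 to 0.13). With the replicate block 1 member was called in pie1-5 (KNAT1; KNAT6 at adjusted p = 0.0546), and TCP3 in pkl-1 was at 0.0567.

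For regions, TMM gave 7 H3K27me3 calls in pkl-1 and 30 in clf-28. In pie1-5 there was 1 without the length offset and 1 with WT counts from the replicate 2 table, an alternative chosen after seeing the data. H2A.Z calls in pkl-1 were 0 without the length offset and 129 with the replicate block, and in clf-28 the block gave 10. Leaving out 1 H2A.Z library, with a lone library assumed to vary like the others, gave 0 to 1 in pkl-1, 0 to 3 in clf-28 and 0 to 13850 in pie1-5. No paired analysis was possible for H3K27me3 because the tables hold 1 WT library, and leaving out a mutant library gave values with no test.

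Of 90 single results followed, 27 changed sign under an alternative, none of them called. With TMM these were H3K27me3 in pie1-5 at KNAT1 (0.19) and AS2 (0.02), and H2A.Z in clf-28 at KNAT1 (0.05), KNAT6 (0.14) and AS1 (0.13) and in pie1-5 at KNAT1 (0.35), PNY (0.35) and AS2 (0.54). When 1 RNA library was left out, KNAT3 in pkl-1 ranged from −0.05 to 0.13. In clf-28 STM ranged from −0.10 to 0.53, KNAT1 from −0.07 to 0.22, PNY from −0.02 to 0.23, PNF from −0.26 to 0.62, AS1 from −0.26 to 0.01 and AS2 from −0.05 to 0.29. In pie1-5 STM ranged from −0.06 to 0.58, KNAT2 from −0.66 to 1.00, KNAT3 from −0.24 to 0.56, AS1 from −0.06 to 0.67 and AS2 from −0.61 to 0.74. KNAT6 ranged from −0.58 to 0.11 between pkl-1 and clf-28 and from −0.42 to 0.27 between clf-28 and pie1-5. For H2A.Z, PNY ranged from −0.11 to 0.25, PNF from −0.17 to 0.01 and AS2 from −0.06 to 0.54 in pkl-1. In clf-28 PNY ranged from −0.95 to 0.20, AS1 from −0.46 to 0.16 and AS2 from −0.35 to 0.58, and in pie1-5 AS2 from −0.96 to 0.37. The cause was not tested. Members with a region over the gene or its 1 kb flanks in every table numbered 8 for H3K27me3 and 10 for H2A.Z, and stayed within 1.5 times with the gene body alone or 2 kb flanks. Depth limits STM, KNAT2, KNAT6 and PNF most, with 0 to 139 reads per library.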
